A study of Mus musculus with 3 samples.

Results

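Interleukin-6 family cytokines and their receptors are described here in cultured mouse cells labelled as cavernous endothelial cells. The set was 10 genes, taken by symbol: the ligands Il6, Il11, Lif, Clcf1 and Ctf1, the receptors Il6st, Lifr, Osmr and Il11ra1, and the feedback gene Socs3. All 10 were found, on 12 of the 26055 probes that could be named, out of 19751 named genes. They were chosen with their values on these arrays known, so every value below is a description and none is a test.

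The cells were labelled as primary endothelial cells from the penile cavernous tissue of C57BL/6 mice, grown with serum, heparin and vascular endothelial growth factor A. The comparisons are of glucose concentration and of knockdown of Ninj1, the gene of the adhesion protein ninjurin 1. By the labels, 1 array was from cells in normal glucose (5 mmol), 1 from high glucose (30 mmol) and 1 from high glucose (30 mmol) with Ninj1 siRNA (200 pmol). Exposure lasted 48 h, and 3 numbered samples were pooled for every array. A control siRNA is not named, and the protocol text, which describes transfection, is the same for every sample. With 1 array per group there is no replicate error, and "higher" and "lower" compare these arrays only.

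The labels of the 2 high-glucose arrays are in doubt. Ninj1 was brighter on the array labelled siRNA (signal 25539) than on those labelled high glucose (16291) and normal glucose (20413), against the siRNA's purpose, and group words attached to the deposited files exchange the 2 high-glucose arrays. Each group is therefore called by its label, and with the exchange every difference between the 2 high-glucose arrays changes sign. The tissue label was also checked. Of 10 endothelial markers, Erg, Emcn and Tie1 were well above background on no array, while the growth factor receptor Kdr read 7440, 7298 and 8278 under the normal-glucose, high-glucose and siRNA labels. Fibroblast markers were bright, with a median signal of 47054, 48103 and 22234 over 9 genes in that order. Fewer cells of a type and less RNA per cell cannot be told apart in such bulk samples.

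Cytokines of the interleukin-6 family share the signalling receptor gp130, encoded by Il6st. Interleukin-6 and interleukin-11 first bind their own alpha receptors and then pair gp130 molecules, whereas leukaemia inhibitory factor, cardiotrophin 1 and cardiotrophin-like cytokine factor 1 join gp130 to the LIF receptor, and oncostatin M joins it to Osmr. The receptors activate JAK kinases and STAT3, and STAT3 induces Socs3, whose product binds gp130 and limits the signal. In vascular and stromal tissue these cytokines are known for acute-phase gene induction, matrix remodelling and wound responses.

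The regions just before the starts of 4 genes are shown first, because 3 of them belong to the ligands that differed most between arrays and the fourth to the feedback gene. Each sequence is the 250 bases before a RefSeq start (GRCm38.p6), 5′ to 3′ on the gene's strand. Capitals mark matches to 5 motifs on either strand: AP-1 (TGANTCA), the cyclic AMP response element (TGACGTCA), NF-kappaB (GGG, any 2 bases, TTTCC), C/EBP (TTGCNNAA) and STAT (TTCNNNGAA). The Il6 region is chr5:30012864-30013113 (plus strand), the Il11 regions are chr7:4782858-4783107 for the upstream start and chr7:4778142-4778391 for the downstream start (both minus strand), the Lif region is chr11:4257318-4257567 (plus strand) and the Socs3 region is chr11:117969367-117969616 (minus strand).
Il6: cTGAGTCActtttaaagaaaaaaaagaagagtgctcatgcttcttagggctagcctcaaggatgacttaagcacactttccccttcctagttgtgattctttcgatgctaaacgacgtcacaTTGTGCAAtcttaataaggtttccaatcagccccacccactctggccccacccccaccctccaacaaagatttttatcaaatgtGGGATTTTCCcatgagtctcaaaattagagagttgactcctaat
Il11, upstream start: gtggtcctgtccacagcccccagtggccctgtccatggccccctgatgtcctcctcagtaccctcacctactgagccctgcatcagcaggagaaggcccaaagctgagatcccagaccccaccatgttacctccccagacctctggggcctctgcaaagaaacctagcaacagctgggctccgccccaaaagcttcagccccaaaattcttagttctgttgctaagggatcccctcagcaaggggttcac
Il11, downstream start: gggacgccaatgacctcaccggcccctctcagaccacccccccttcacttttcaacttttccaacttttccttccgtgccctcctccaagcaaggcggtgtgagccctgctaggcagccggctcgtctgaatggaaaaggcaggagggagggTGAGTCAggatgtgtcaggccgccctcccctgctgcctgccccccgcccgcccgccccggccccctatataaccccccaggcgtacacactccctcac
Lif: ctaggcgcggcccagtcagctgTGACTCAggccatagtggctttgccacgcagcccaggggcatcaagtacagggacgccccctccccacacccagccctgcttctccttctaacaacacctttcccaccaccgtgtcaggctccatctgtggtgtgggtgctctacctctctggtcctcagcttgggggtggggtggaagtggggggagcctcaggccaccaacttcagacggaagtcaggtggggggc
Socs3: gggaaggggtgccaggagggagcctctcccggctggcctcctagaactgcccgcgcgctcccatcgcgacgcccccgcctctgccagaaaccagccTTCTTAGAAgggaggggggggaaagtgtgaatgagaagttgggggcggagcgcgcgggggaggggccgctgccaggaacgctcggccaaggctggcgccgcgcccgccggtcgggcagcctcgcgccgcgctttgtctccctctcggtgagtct

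The table of promoters held 12 windows of 300 bases (250 before and 50 after a start) for 9 of the 10 genes, with none for Clcf1. An AP-1 match lay 249 bases before the Il6 start, 98 bases before the downstream Il11 start and 228 bases before the Lif start, and a further one lay inside the Osmr transcript at base 4. Thus 4 of 12 windows held the AP-1 letters, which occur in 7.81% of all 32851 windows. The Il6 window also held an NF-kappaB match 44 bases before the start (1.63% of all windows) and a C/EBP match at 128 bases (10.8%). Socs3 held a STAT match at 154 bases (8.30%). The cyclic AMP response element and the TATA box letters TATAAA were in none of the 12 windows (1.79% and 13.6% of all windows). The SP1 letters GGGCGG were in 8 of 12, against 35.7% of all windows. The motifs do not overlap in these windows apart from SP1 matches that share bases with each other before the downstream Il11 start, and a match of letters is no evidence of binding.

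**Figure D1:**
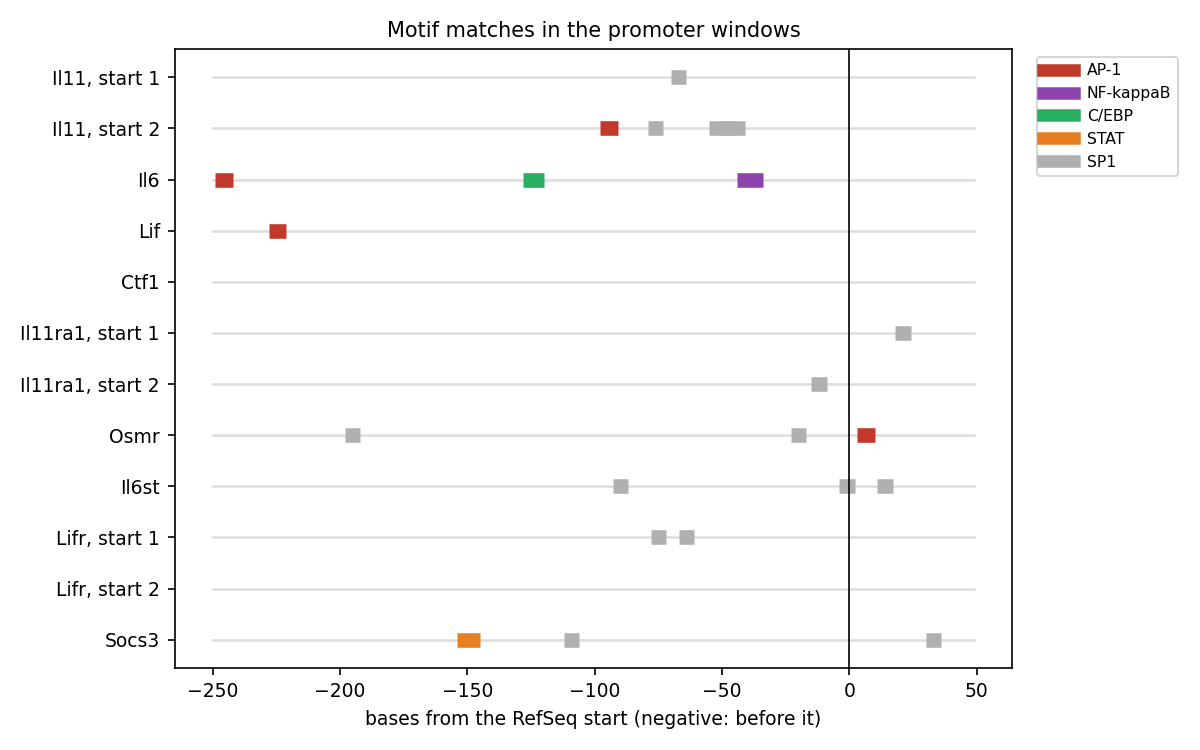
Motif matches in the 12 promoter windows of 9 genes, plotted by distance in bases from the RefSeq start (vertical line), with a colour for each motif. AP-1 matches (red) lie before the starts of Il6, Lif and the downstream start of Il11, and the only NF-kappaB, C/EBP and STAT matches lie in the windows of Il6 and Socs3.

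In this set, 4 ligands separated from the receptors when the siRNA-labelled array was set against high glucose. Il11, Il6, Lif and Clcf1 were 20.9-fold, 4.74-fold, 3.87-fold and 2.01-fold higher under the siRNA label, while the fifth ligand, Ctf1, was 2.15-fold lower. All 4 receptors were lower, Lifr by 5.17-fold, Il6st by 3.92-fold, Il11ra1 by 1.91-fold and Osmr by 1.74-fold. Socs3 differed by 1.11-fold. For the glucose comparison itself, high against normal, no gene of the set differed by more than 0.14 on the log2 scale on its brightest probe. All 12 probes were well above background on all 3 arrays, so each difference was measured on both sides.

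**Figure D2:**
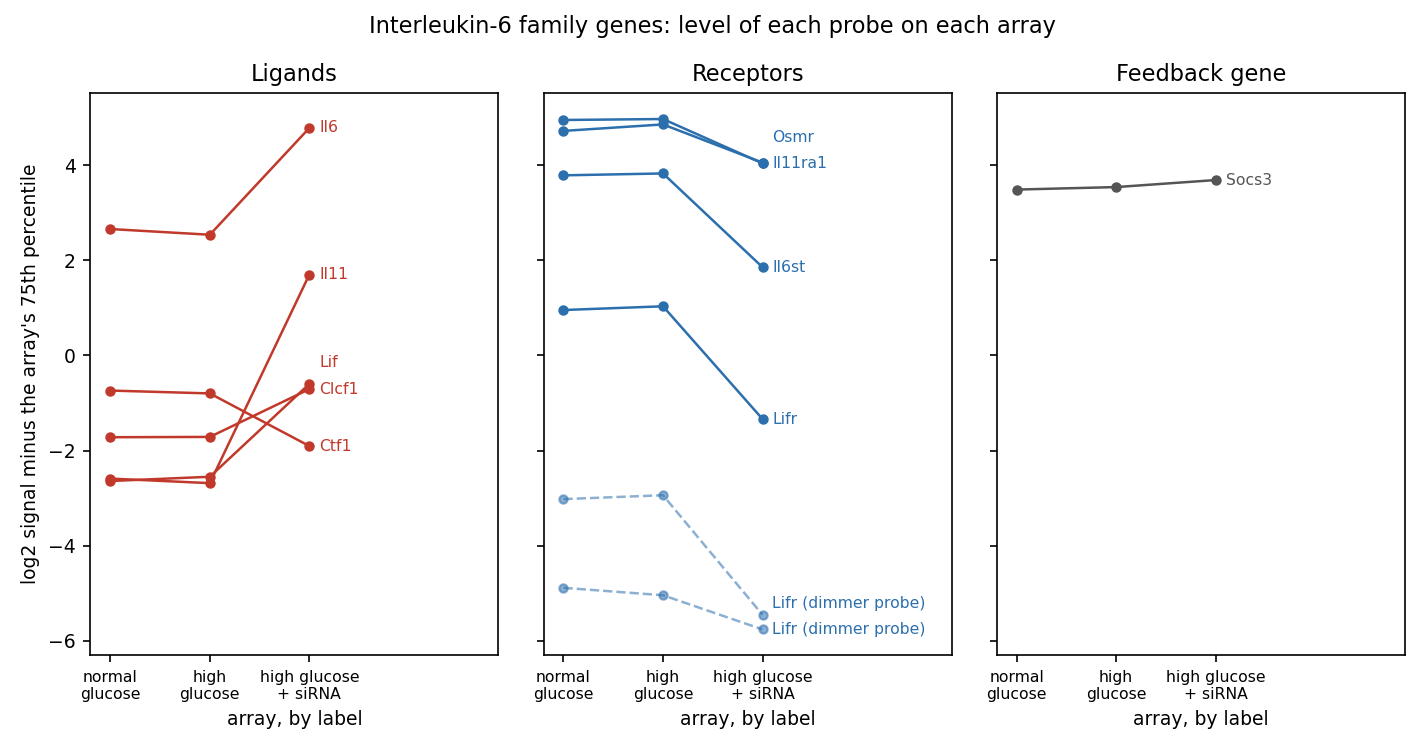
Level of each of the 12 probes on the 3 labelled arrays, as log2 signal minus the array's 75th percentile, for ligands (red), receptors (blue) and Socs3 (grey); dashed lines are the 2 dimmer Lifr probes. Lines run nearly flat from normal to high glucose, then 4 ligands go up and Ctf1 and every receptor probe go down, while Socs3 stays within 0.20 of its starting level; levels of different probes cannot be compared.

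Signals are processed spot intensities, and differences were taken after subtracting each array's 75th percentile on the log2 scale. The error after each difference is the spread expected from spots alone, taken from repeated probes of like brightness, or from its own 10 spots for Ctf1. It holds no error of culture or hybridisation.

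Il11 encodes interleukin-11, a cytokine that stromal and epithelial cells secrete. Its signal was 296 in normal glucose, 269 in high glucose and 6567 on the siRNA-labelled array. The error estimate given by the array-reading software was 29.9, 27.2 and 657. The first 2 arrays lie within that error of each other and the third stands far above both. The log2 difference was 4.38 ± 0.09 (spot error) between siRNA and high glucose and 4.29 ± 0.09 between siRNA and normal glucose. Il11 ranked 2 from the top of 15628 genes in the first comparison and 1 of 15586 in the second, bounds included.

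Il6 encodes interleukin-6, the inflammatory cytokine that gave the family its name. In that same order it read 11218, 10028 and 55604. The siRNA-labelled array was again the high one, by a log2 difference of 2.24 ± 0.07 over high glucose and 2.12 ± 0.07 over normal glucose. High glucose differed from normal glucose by -0.12 ± 0.07.

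Lif encodes leukaemia inhibitory factor, a ligand of the gp130 and LIF receptor pair. Its signals were 285, 295 and 1337 in the same order. The log2 difference was 1.95 ± 0.09 for siRNA against high glucose and 2.04 ± 0.09 against normal glucose. Lif therefore had 1 high array, as Il11 and Il6 did.

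Clcf1 encodes cardiotrophin-like cytokine factor 1, which acts through the ciliary neurotrophic factor receptor. It read 540, 527 and 1239. Its log2 difference of 1.01 ± 0.09 for siRNA against high glucose lies at the 2-fold line within its spot error, and it was 0.77 with normexp background correction, below that line.

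Ctf1, encoding cardiotrophin 1, was the ligand that ran the other way. It was printed 10 times per array, and these spots ranged from 1030 to 1120 under the normal-glucose label, from 950 to 1042 under the high-glucose label and from 450 to 581 under the siRNA label. The spots of the siRNA-labelled array thus overlapped neither of the others, while the other 2 arrays overlapped each other. The log2 difference was -1.11 ± 0.04 for siRNA against high glucose and -1.17 ± 0.04 against normal glucose. Spots share 1 RNA pool, so this range covers the array reading only. Without scaling the first difference was -0.88, short of 2-fold.

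The common receptor gene Il6st was lower on the siRNA-labelled array. Its signals were 24523, 24493 and 7317, so the normal-glucose and high-glucose arrays nearly coincided. The log2 difference was -1.97 ± 0.07 for siRNA against high glucose and -1.93 ± 0.07 against normal glucose.

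Lifr, encoding the LIF receptor chain, had 3 probes. The brightest read 3447, 3536 and 801, and the next 219, 225 and 46.2. Both put the siRNA-labelled array lowest, with log2 differences of -2.37 ± 0.08 and -2.51 ± 0.20 against high glucose. The dimmest probe read 60.2, 52.5 and 37.4 and gave -0.72 ± 0.25, the same direction at a smaller size. The brightest and dimmest share an accession.

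Osmr and Il11ra1 encode the oncostatin M receptor chain and the interleukin-11 alpha receptor. Osmr read 46860, 50032 and 33564, a log2 difference of -0.80 ± 0.07 for siRNA against high glucose and -0.67 ± 0.07 against normal glucose. Il11ra1 read 54934, 54128 and 33204, giving -0.93 ± 0.07 and -0.91 ± 0.07. Neither passed 2-fold in the values as scaled. Il11ra1 did pass it against high glucose with quantile normalization (-1.03), cyclic loess (-1.07) and normexp (-1.02). RefSeq lists Il11ra2 among the synonyms of Il11ra1, and no probe was named for Il11ra2 itself, so the probe's signal may include a near-identical copy.

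Socs3 encodes the suppressor of cytokine signalling that STAT3 induces. It read 19933, 20083 and 26036. After scaling, its log2 difference was 0.15 ± 0.07 for siRNA against high glucose and 0.20 ± 0.07 against normal glucose. Over the 10 ways of scaling and filtering it kept its sign against high glucose, ranging from 0.04 to 0.37, the highest without scaling. The median over all genes was itself 0.24 without scaling.

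**Figure D3:**
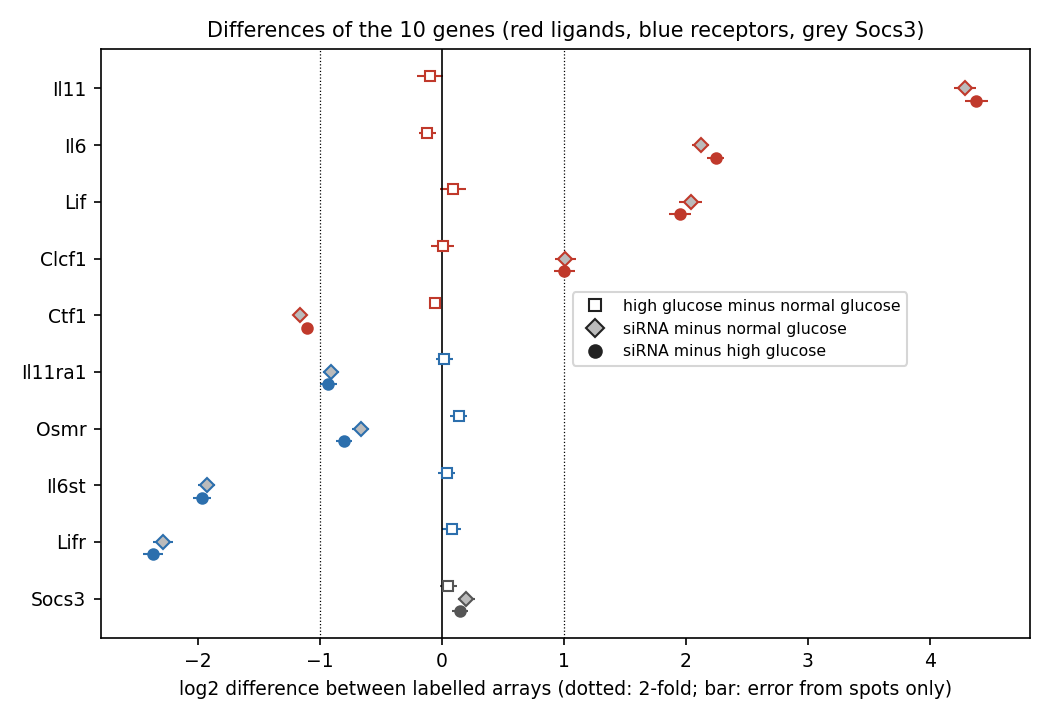
Log2 difference of each of the 10 genes in the 3 comparisons of labelled arrays (circles, siRNA minus high glucose; diamonds, siRNA minus normal glucose; squares, high glucose minus normal glucose), with bars for the error from spots alone and dotted lines at 2-fold. Squares lie near 0 for every gene, and the other 2 symbols of a gene lie close together because those comparisons share the siRNA-labelled array.

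Against high glucose, 4 of the 10 genes were 2-fold or more higher on the siRNA-labelled array, where 6.51% of 15628 genes were, and 3 of 10 were lower by that much, where 8.23% were (14.7% in either direction). The set was picked with this contrast in view, so nothing is read from those counts. The median log2 difference was 1.95 over the 5 ligands and -1.45 over the 4 receptors, a gap of 3.40, beside a median of 0.01 over all genes. The ligands spanned -1.11 to 4.38 and the receptors -2.37 to -0.80. The ranges overlap through Ctf1, and the other 4 ligands all lay above the highest receptor. Against normal glucose, which shares the siRNA-labelled array, the same counts were 4 and 3 of 10, where 6.36% and 7.95% of 15586 genes were called (14.3% in either direction), with medians of 2.04 and -1.42. There, too, the counts moved with the setting. Il11ra1 passed 2-fold with quantile normalization (-1.01), cyclic loess (-1.04) and normexp (-1.01), Ctf1 fell short of it without scaling (-0.98) and Clcf1 with normexp (0.82). Between high glucose and normal glucose 0 of 10 passed 2-fold in either direction, where 1.55% of 15086 genes did (0.835% higher and 0.716% lower). There the ligand and receptor medians were -0.06 and 0.06, and the largest difference was that of Osmr at 0.14 ± 0.07.

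**Figure D4:**
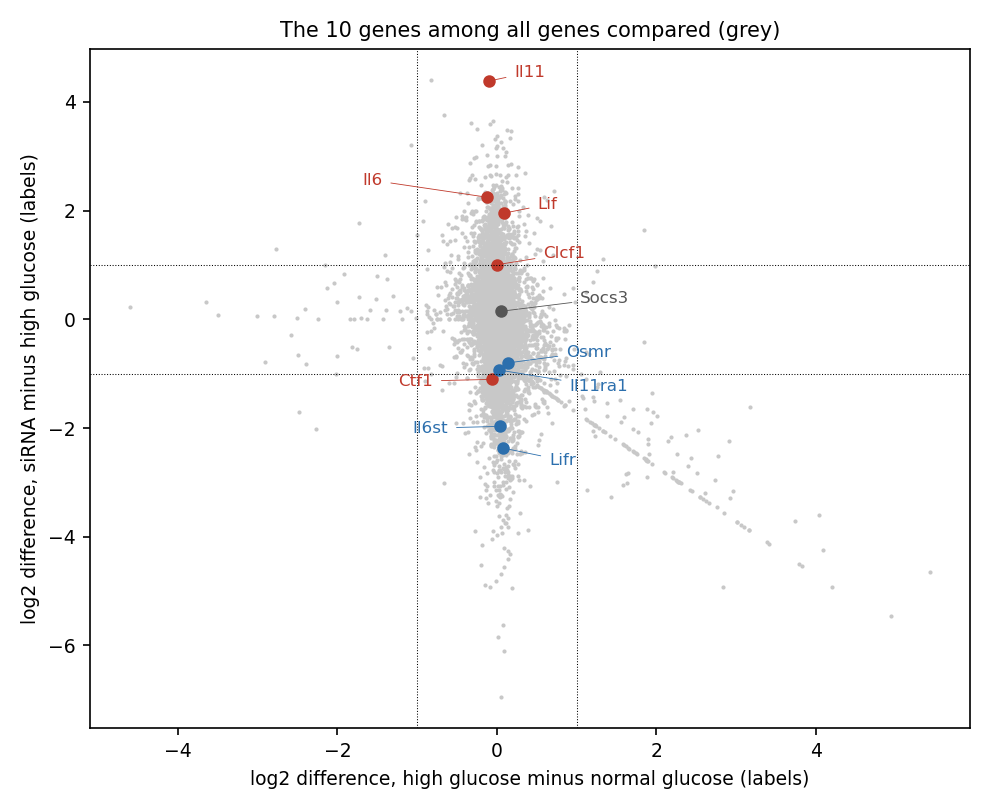
Every gene with a value in both comparisons (grey), by its log2 difference of high minus normal glucose (horizontal) and of siRNA minus high glucose (vertical), with the 10 genes marked and dotted lines at 2-fold. The 10 genes lie on a narrow vertical band around 0, from Lifr at -2.37 to Il11 at 4.38; both axes share the high-glucose array, and genes below background on 1 array are drawn at their bound.

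The ligands were also set beside their own receptors, as log2 differences of siRNA against high glucose. For interleukin-11 the ligand stood at 4.38 and its alpha receptor Il11ra1 at -0.93. For leukaemia inhibitory factor the ligand stood at 1.95 and Lifr at -2.37. For cardiotrophin 1, which also uses the LIF receptor, ligand and receptor were both lower. For interleukin-6 the alpha receptor gene Il6ra, outside the set, read 5272, 4659 and 5085, a log2 difference of -0.10 against high glucose that turned positive without scaling (0.13). The receptor Cntfr, through which Clcf1 acts, was dim at 57.6, 56.7 and 122 and stood at 0.88 ± 0.19, with a range of 0.27 to 1.11 over the settings.

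Among the 7 other ligands and ligand partners, 0 of 6 compared passed 2-fold in either direction against high glucose, where 14.7% of all genes did. Osm was among the 6 only as a bound, and nothing is read from so short a list. Il27 stood at 0.23 and Ebi3, the partner subunit of interleukin-27, at -0.69. Ebi3 read 231, 157 and 114, so that it was 2.31-fold lower against normal glucose. That log2 difference ranged from -1.21 to -0.87 over the settings, the last short of 2-fold. Ctf2 (0.24) and Cntf (-0.17) turned sign under another setting, and Cntf, encoding ciliary neurotrophic factor, read 692, 661 and 690. Osm, encoding oncostatin M, was above background on the siRNA-labelled array alone, at 20.6, with no fold, and Il31 on none.

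Of the 6 other receptors compared, 2 were at least 2-fold lower and 0 at least 2-fold higher, with a median of -0.29, where 8.23% and 6.51% of all genes were. Both calls ended under another setting, Il27ra ranging from -1.06 to -0.55 and Il31ra from -1.89 to -0.87. Il27ra was dim at 42.1, 57.0 and 32.0 and stood at -1.06 ± 0.25. Il31ra read 86.0, 68.1 and 21.4 on its brighter probe (-1.89), but a second probe went the other way, being above background on the siRNA-labelled array only. Lepr, the leptin receptor, had 4 probes, and the brightest read 3280, 3240 and 3188 (-0.25). Others gave 0.53 and -0.29, and the dimmest was well above background on the normal-glucose array alone. Csf3r, the granulocyte colony-stimulating factor receptor, read 62235, 63009 and 58507 (-0.33).

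The signalling genes below the receptors all stood lower after scaling. The 11 JAK-STAT and SHP2 genes had a median log2 difference of -0.41 against high glucose. Among them 1 was at least 2-fold lower and 0 at least 2-fold higher, where 8.23% and 6.51% of all genes were. The kinase gene Tyk2 stood at -0.88, Stat5b at -0.85 and Stat5a at -0.84. Stat3 itself, the main factor of this pathway, read 24168, 23524 and 23286 (-0.24). Jak1 (-0.06) and Shc1 (-0.04) turned positive without scaling. Of 8 negative regulators other than Socs3, 0 passed 2-fold in either direction, where 14.7% of all genes did, and their median was 0.01. The phosphatase gene Ptpn1 stood at -0.83, Ptpn6 at 0.78, Pias1 at -0.73 and Socs1 at -0.70. Of the shedding enzymes, Adam10 stood at 0.17 and Adam17 at -0.83.

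Of 22 genes that STAT3 is known to induce, 7 were higher and 15 lower. Among them 6 were at least 2-fold lower under the siRNA label against high glucose and 0 at least 2-fold higher, with a median of -0.40, where 8.23% and 6.51% of all genes were. For 2 of the 6 the call ended under another setting, Il4ra ranging from -1.09 to -0.60 and Hp from -1.07 to -0.81. Steap4, a metalloreductase gene, read 6483, 6230 and 715 and was 10.2-fold lower. The protease inhibitor gene Serpina3n read 5763, 6277 and 969, which was 7.58-fold lower. Lbp, encoding the lipopolysaccharide-binding protein, was 3.55-fold lower and Icam1, an adhesion molecule gene, 2.93-fold lower. These 4 were low on the siRNA-labelled array alone, the other arrays differing by at most 1.12-fold. All 4 are also induced by other inflammatory signals.

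Among 13 NF-kappaB and AP-1 factors, whose family motifs stand in the sequences above, 1 passed 2-fold upward and 0 downward against high glucose. Of all genes, 6.51% and 8.23% did. The median of the 13 was -0.05, in which Rel counts as a bound. Atf3, a stress-induced factor, read 3267, 2929 and 7802 (1.19). Fosl1, an AP-1 subunit, read 6441, 6094 and 12968 (0.86). Batf stood at -0.52. Nfkb1 also stood at -0.52, but it read 1060, 1302 and 1064, so its high-glucose array was the high one. Against normal glucose Nfkb1 stood at -0.18. Messenger levels of such factors do not give their activity.

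**Figure D5:**
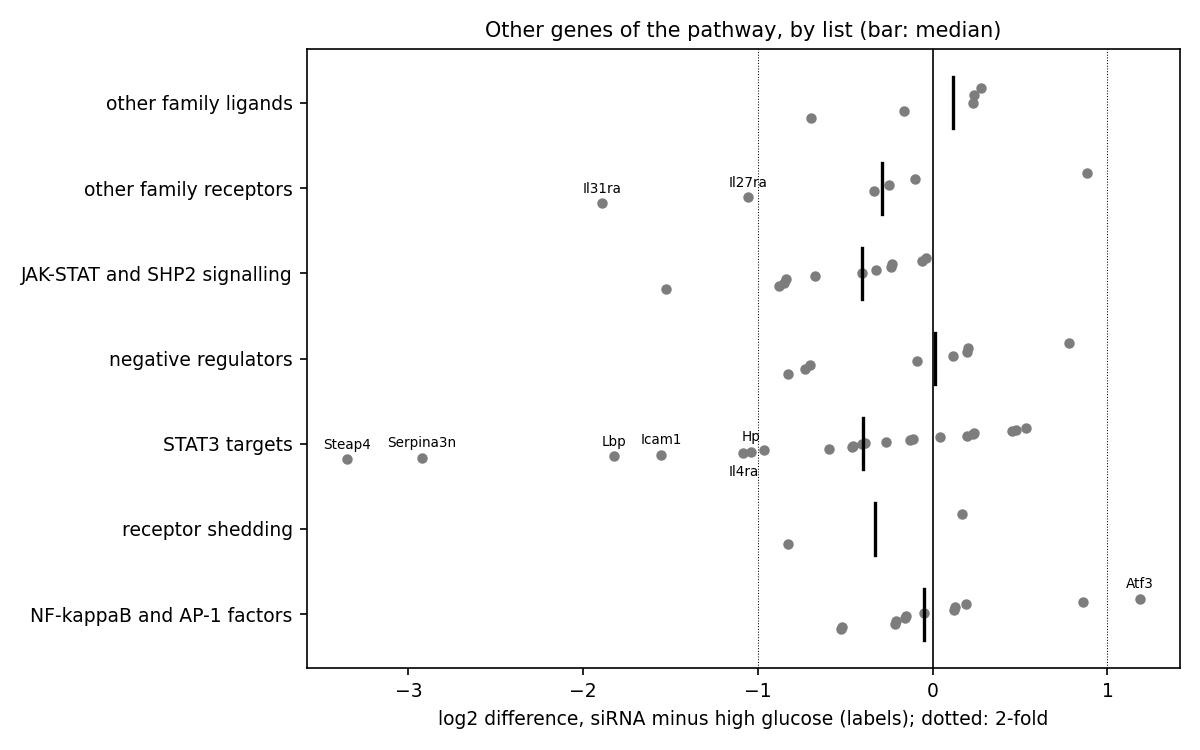
Log2 difference of siRNA minus high glucose for the other genes of the pathway, 1 point for each gene measured on both arrays and a bar for each list's median (bounds included), with names for genes past 2-fold outside the signalling list. The named genes lie to the left in the lists of receptors and STAT3 targets, down to Steap4 at -3.35, and Atf3 at 1.19 is the only one to the right.

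Some lists of cell type markers also differed between these arrays, while the endothelial and the Schwann and neural lists stayed nearly level in sum. Over all genes, 8.23% were at least 2-fold lower and 6.51% higher under the siRNA label against high glucose, and these shares apply to the counts below. Of 9 fibroblast markers 5 were at least 2-fold lower and 0 at least 2-fold higher. Their summed level, in multiples of each array's 75th percentile, was 520, 528 and 361 in the order normal glucose, high glucose, siRNA. Of 7 smooth muscle and pericyte markers compared 4 were lower and 1 higher by that measure, with a summed level of 39.7, 37.2 and 13.8 over 8 genes, Myh11 being above background on no array. Of 7 endothelial markers compared 3 were lower, 2 of them (Tek and Cldn5) as bounds, and 1, Cdh5, was higher. Their summed level was 4.53, 4.60 and 4.68, most of it from Kdr. Of 5 leukocyte markers compared 2 were lower and 0 higher, with a summed level of 15.5, 15.2 and 11.9 over 6 genes. Of 3 epithelial markers compared 0 were lower and 1 higher. Their summed level was 0.147, 0.148 and 0.340 over 6 genes, with Epcam, Cdh1 and Krt8 above background on no array. Of 5 Schwann and neural markers 1 was lower and 1 higher, with a summed level of 1.08, 1.13 and 1.04. Their part in the ligand and receptor differences was not tested.

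The genes whose pattern lay closest to that of Il11 were sought by the distance between pairs of log2 differences. The search covered 13941 genes measured on all 3 arrays, without predicted gene models or the set itself. The nearest were Csta3 (distance 0.73), Cstdc4 (0.74), Csta2 (0.78), Cited1 (0.80) and Lce3a (0.84). Csta3, Cstdc4 and Csta2 belong to the stefin A family of protease inhibitors, Cited1 is a transcriptional coregulator gene and Lce3a a gene of the cornified envelope. Csta2 read 227, 208 and 2955 and Cited1 108, 84.1 and 1207, so both had 1 high array, the one labelled siRNA. Csta3, Cstdc4 and Lce3a were dim under the normal-glucose and high-glucose labels, Csta3 reading 68.7, 37.7 and 931. The log2 difference of Csta3 for high against normal glucose was -0.82, where that of Il11 was -0.10. Likeness here rests on 3 arrays.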

How the data were processed

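Total RNA was labelled with Cy3 and read on 3 single-colour arrays of 1 slide, per the labels and the file headers. Per the file headers, Agilent Feature Extraction 11.0.1.1 gave the processed signal, a background-subtracted intensity on a linear scale, with an error estimate; the design was annotated on mm9, so its coordinates are not used. The authors' deposited value table equalled that intensity within 0.1% for 100% of the 39030 probes with 1 spot.

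Outlier spots were left out, log2 signals averaged per probe, and each array's 75th percentile subtracted. Probes were named through RefSeq accessions (GRCm38.p6; 26055 of 39429, 66.1%). A gene was read from its brightest probe well above background (in at least 50% of spots) on 1 or more arrays of a comparison; with 1 array below it, the difference is a bound. Of the probes, 67.0%, 67.6% and 70.6% were well above background under the normal-glucose, high-glucose and siRNA labels, and no spot was saturated (0 on each). Precision is limited by 1 array per group. Spot error came from the 150 readings of repeated probes nearest in brightness. No test was possible.

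The genes and lists were chosen with earlier results of these data known. The rule named every gene of the set, the family's other ligands and receptors above background, up to 4 genes per further list by size, Ninj1 and the 5 genes nearest to Il11. Some genes under this rule are not reported here. Alternatives were other scalings, background correction (normexp on median signals, offset 50, limma 3.58.1, R 4.3.3), dim-probe filters, probe averaging, the value table, fold thresholds and the exchange of arrays. Steps ran in Python 3.11.15 and were tested on simulated arrays.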

Additional observations from a re-analysis of the deposited data

How the results depend on the processing

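Each gene that passed 2-fold against high or normal glucose kept its direction under all 9 other ways of scaling, background correction, filtering and averaging probes, and 0 of 10 genes passed 2-fold in the glucose comparison under each of them. The gap between the ligand and receptor medians against high glucose, 3.40 as scaled, was 3.52 with quantile normalization, 3.55 with cyclic loess and 3.19 with normexp; against normal glucose, 3.46 as scaled, it was 3.30 with normexp. At 1.5-fold, 5 genes were lower in each of these comparisons instead of 3, where 2460 of 15628 and 2404 of 15586 genes were lower by that much. With the 2 high-glucose arrays exchanged, the gap became -3.40 against high glucose and -0.12 against normal glucose, 7 genes passed 2-fold between high glucose and normal glucose, and 0 were higher and 0 lower between siRNA and normal glucose. Without scaling, 62.6% of all genes past 2-fold between siRNA and high glucose were higher, against 44.2% as scaled, and 60.1% against 44.4% for siRNA and normal glucose. Normexp called 621 genes higher and 782 lower between siRNA and high glucose (1018 and 1286 as scaled), 606 and 768 against normal glucose (991 and 1239), and 44 and 33 between high glucose and normal glucose (126 and 108); without a dim-probe filter the last pair was 448 and 338, and with probes above background on every array 37 and 26. No paired analysis was possible because each group has 1 array. Leaving out a replicate was not possible for the same reason.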
